A study of Mus musculus with 2 samples.

Results

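The Ms4a genes encode small proteins that cross the membrane several times, and mouse cells carry them as a cluster of related copies on chromosome 19. The 9 members described here (Ms4a1, Ms4a4a, Ms4a4b, Ms4a4c, Ms4a6b, Ms4a6c, Ms4a6d, Ms4a7 and Ms4a8a) were chosen by symbol, with their levels across lung cell types already known, from 19 rows of the gene tables whose symbol begins with Ms4a and 31053 gene rows in all. The choice thus used the levels per cell type, and these are given as a description. Single cell RNA sequencing of sorted lung cells was carried out on 3 pools of female C57BL/6J mice, one pool per treatment. Mice of the asthma pool were sensitized with ovalbumin (OVA) and Alum, an aluminium adjuvant, and then challenged with OVA through the nose. Mice of the tolerance pool inhaled OVA before that same protocol, and mice of the control pool received Alum without OVA and saline through the nose. The sort took dendritic cells (DCs), with high CD11c and high MHC-II and without Ly6C, CD64 or MerTK, together with macrophages. B, T and NK cells and monocytes are cells outside both targets of the sort. The pools carried hashtags, were mixed and were run on 2 lanes, which gives 6 libraries, in which the lanes are technical and each treatment rests on 1 pool of mice.

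Members of the family differ in the cells that use them. Ms4a1 encodes CD20, the surface protein by which B cells are commonly recognised, and Ms4a4b encodes a T cell membrane protein that associates with the receptor GITR in mice. Ms4a8a has been described in alternatively activated mouse macrophages, Ms4a7 in tissue macrophages of the mouse brain and its borders, and human MS4A4A in macrophages.

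The 9 members lay between positions 11067471 and 11604849 of chromosome 19 (GRCm38), a stretch of 537379 bases, and all 9 were annotated as protein-coding. In chromosome order they were Ms4a8a, Ms4a1, Ms4a7, Ms4a4a, Ms4a4c, Ms4a4b, Ms4a6c, Ms4a6b and Ms4a6d. Ms4a4c (11404770 to 11427246, plus strand) and Ms4a4b (11443553 to 11467055, plus strand) stood 16306 bases apart, and 2310 bases after Ms4a4b began Ms4a6c (11469366 to 11482192, plus strand). The sequences just before the start sites of the neighbouring copies are shown because these copies are used by different cells in the results that follow. RefSeq promoter windows of GRCm38.p6, with 250 bases before the start and 300 bases in all, matched 7 of the 9 members, and Ms4a1 and Ms4a6d had no entry in the table used. The Ms4a4c stretch is chr19:11407528-11407660 and the Ms4a4b stretch is chr19:11443422-11443553, both on the plus strand. Both stretches are named by RefSeq's starts. The starts of Ms4a4c, Ms4a4b, Ms4a6c and Ms4a6b lie inside the gene spans given by the annotation, those of Ms4a4b and Ms4a6c by a few bases. Capitals mark bases that differ from the partner or have none opposite them.
Ms4a4c: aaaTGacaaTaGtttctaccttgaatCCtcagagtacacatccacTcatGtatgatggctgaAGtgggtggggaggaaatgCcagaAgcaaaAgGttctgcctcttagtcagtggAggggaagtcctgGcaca
Ms4a4b: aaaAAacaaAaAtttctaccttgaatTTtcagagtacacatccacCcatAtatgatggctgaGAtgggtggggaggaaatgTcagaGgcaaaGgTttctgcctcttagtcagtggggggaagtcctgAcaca
Of 132 bases aligned without a gap, 117 were identical between the Ms4a4c and Ms4a4b stretches (88.6%). The Ms4a6c stretch is chr19:11469193-11469366 and the Ms4a6b stretch is chr19:11518311-11518488, both on the plus strand and with the same meaning of the capitals.
Ms4a6c: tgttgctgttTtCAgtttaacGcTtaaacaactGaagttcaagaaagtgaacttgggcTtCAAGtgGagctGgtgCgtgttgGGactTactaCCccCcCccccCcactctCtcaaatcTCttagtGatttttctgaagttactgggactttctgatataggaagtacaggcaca
Ms4a6b: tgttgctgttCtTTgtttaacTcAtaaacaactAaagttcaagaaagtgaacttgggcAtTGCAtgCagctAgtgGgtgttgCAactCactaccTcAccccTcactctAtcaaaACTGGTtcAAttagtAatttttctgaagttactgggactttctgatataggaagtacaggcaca
Of 172 bases aligned without a gap, 148 were identical between the Ms4a6c and Ms4a6b stretches (86.0%), and the Ms4a6b stretch ends 71 bases before its RefSeq start. For the 19 other pairs of members with an entry, the best local alignment held at most 30 identical bases. The letters GAAAGTGAAC, searched on both strands and chosen after both stretches were seen, stood in the Ms4a6c and Ms4a6b windows and in 0.0888% of 27025 mouse promoter windows of the same length. GGAAGT, the core recognised by ETS factors, stood in the windows of Ms4a4b, Ms4a4c, Ms4a6b, Ms4a6c and Ms4a7 and in 24.1% of all windows. The interferon-stimulated response element, written as GAAA and again GAAA with 2 free bases between, stood as an exact match in 0 of the 7 windows and in 3.49% of all. GAAAGTGAAC differs from that pattern only at its last base, and inexact matches were not searched. These matches are letters in a window and describe neither binding nor activity.

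After filtering, 9856 cells were kept of 10901 barcodes, and the 6 libraries held between 7897139 and 11459855 UMIs (unique molecular identifiers, each standing for 1 captured RNA molecule). No barcode was shared between the lanes (0 in all), and between 98.47% and 99.2% of the hashtag UMIs of a library came from its own hashtag. The barcodes had been split into pools by these hashtags, so this share is no independent check of the split. Cells were assigned to a class by summed UMIs of marker genes, none of them an Ms4a gene. A class name such as cDC2 stands for cDC2-like cells that passed that marker gate, since the classes were rebuilt here, and conventional DCs of type 1 and 2 are written cDC1 and cDC2. The gates took 4796 alveolar macrophages, 852 macrophages with the complement genes C1qa, C1qb and C1qc (C1q macrophages), 44 classical and 349 nonclassical monocytes, 1112 cDC2, 262 cDC1, 298 mature DCs with Ccr7 and Fscn1, 544 B cells, 160 T cells and 28 NK cells. These are 8445 cells, and 571 cells with markers of several classes and 607 without enough markers were left out of class levels. Of the cDC2 gate, 183 cells lay in the C1q macrophage cluster of an unsupervised clustering from which Ms4a genes had been left out. Classical monocytes are few, with 4 cells in the asthma pool, 20 in the tolerance pool and 20 in the control pool. The gate held different cells by pool, since 1 cell in asthma and 7 in tolerance, against 19 in control, lay in the classical monocyte cluster (6 tolerance cells lay in the C1q macrophage cluster and 5 in the mature DC cluster). A level in CPM counts UMIs of one gene per 1000000 UMIs of the cells concerned, and because UMIs mark 3' ends it is not scaled to gene length. A few UMIs in a class can come from free RNA, so shares of cells with a UMI are set beside those in other classes.

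The members divided the cell types among them. Summed over all cells, Ms4a6d had 15030 UMIs, Ms4a6c 14776, Ms4a4c 11039, Ms4a8a 9988, Ms4a6b 3774, Ms4a7 2801, Ms4a1 1851, Ms4a4b 1183 and Ms4a4a 81. The highest class mean was in B cells for Ms4a1, in T cells for Ms4a4b and Ms4a6b, in alveolar macrophages for Ms4a8a, in C1q macrophages for Ms4a7, in cDC2 for Ms4a6d, in nonclassical monocytes for Ms4a4a and in classical monocytes for Ms4a4c and Ms4a6c. The pool values of the leading class stood clear of those of the class next by mean for Ms4a1, Ms4a6b, Ms4a7 and Ms4a8a. They overlapped for Ms4a4a, Ms4a4b, Ms4a4c, Ms4a6c and Ms4a6d. For Ms4a6b, T cells stood clear of classical monocytes but not of the few NK cells. Its T cell pools ran from 634 to 904 CPM and its NK cell pools from 106 to 799 CPM.

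**Figure D1:**
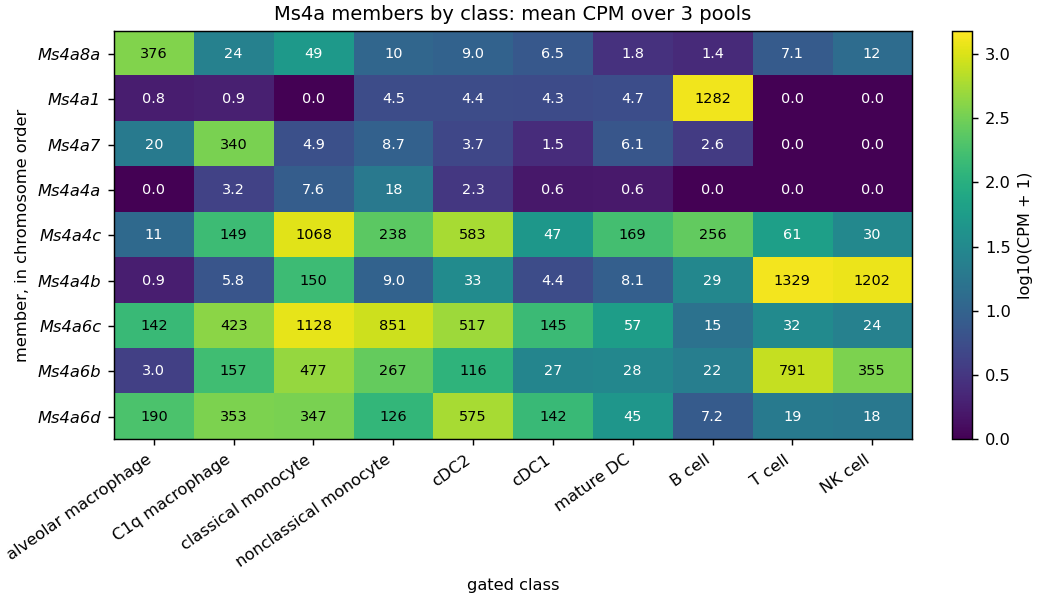
Mean CPM over the 3 pools of the 9 members (rows, in chromosome order) in 10 gated classes (columns), printed in each cell and coloured on a log10(CPM + 1) scale. Ms4a8a, Ms4a1 and Ms4a7 each have 1 bright class, and Ms4a4c and Ms4a6c are spread over monocytes, DCs and macrophages. The classical monocyte column includes an asthma pool of 4 cells.

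In B cells, Ms4a1 was measured at 1366 and 1386 CPM in the 2 lanes of the asthma pool, 1235 and 1381 CPM in those of the tolerance pool and 1029 and 1262 CPM in those of the control pool. The tolerance lanes overlapped with those of both other pools, while both asthma lanes lay above both control lanes. The mean over pools was 1282 ± 112 CPM (SD, n = 3 pools). T cells held 0 Ms4a1 UMIs, and with a floor of 3 UMIs over the T cells the level was at least 177-fold higher in B cells. The share of B cells with an Ms4a1 UMI was 82.9% (95% interval 79.5 to 86.0%, Clopper-Pearson), against 0.354% of alveolar macrophages, with median depths of 1848 UMIs per B cell and 4980 per alveolar macrophage. With each cell thinned to 1000 UMIs, the shares were 66.7% and 0.0836% in the same order.

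Ms4a4b marked T and NK cells. In T cells it was at 1309 and 1310.4 CPM in the asthma lanes, 1148 and 1315 CPM in the tolerance lanes and 1450.1 and 1441 CPM in the control lanes. In NK cells, which numbered 13, 9 and 6 in the asthma, tolerance and control pools, the pool values were 1270.4, 1163 and 1171 CPM. T and NK cells did not stand apart in Ms4a4b, with means of 1329 ± 107 and 1202 ± 59.8 CPM (SD, n = 3 pools each), and no test was made because only 1 pool held 10 NK cells. Classical monocytes held 68.7 CPM over all pools, from 20 UMIs in 9 of 44 cells, with 357 CPM in the 4 cells of the asthma pool. After them, cDC2 held 32.3 CPM and B cells 27.2 CPM over all pools, and 14.6% of cDC2 had an Ms4a4b UMI, against 0.354% of alveolar macrophages. Some sequence is common to the paralogs, so that 3.53% of the 50-base windows in the last 500 bases of Ms4a4b transcripts and 11.1% of those of Ms4a4c transcripts also occur in other Ms4a genes. A read within such a window matches more than 1 gene, and how such reads were counted was not looked at.

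Ms4a6b had its highest mean in T cells, with lower levels in monocytes. T cells held 988 and 814 CPM in the asthma lanes, 638 and 630.1 CPM in the tolerance lanes and 595 and 1004 CPM in the control lanes, with a mean of 791 ± 141 CPM (SD, n = 3 pools). Classical monocytes averaged 477 ± 151, nonclassical monocytes 267 ± 23.6, C1q macrophages 157 ± 31.8 and cDC2 116 ± 26.7 CPM (SD, n = 3 pools each). NK cells ran between 106 and 799 CPM by pool, over 26 UMIs in 6 of 28 cells, so their place in this order is not known. Of the 50-base windows at the ends of Ms4a6b transcripts, 3.95% occur in other Ms4a genes, as do 6.1% of those of Ms4a6c. B cells averaged 22.2 ± 5.17 CPM (SD, n = 3 pools). Alveolar macrophages held 2.45 CPM and 1.13% of them had a UMI, against 73.8% of T cells.

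The 2 macrophage classes were separated by Ms4a8a and Ms4a7. C1q macrophages held between 15.4 and 33.7 CPM of Ms4a8a in the 6 libraries, below every library of alveolar macrophages. Ms4a8a in alveolar macrophages was at 431 and 432 CPM in the asthma lanes, 378 and 399 CPM in the tolerance lanes and 306 and 306 CPM in the control lanes. The gene had a UMI in 11.3% of C1q macrophages, against 76.8% of alveolar macrophages. Classical monocytes held 49.3 ± 19.95 CPM (SD, n = 3 pools) over 14 UMIs, with 0 UMIs in 2 of their 6 libraries.

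Ms4a7 went the other way. In C1q macrophages it was at 255 and 219 CPM in the asthma lanes, 377 and 507 CPM in the tolerance lanes and 411 and 256 CPM in the control lanes. Both tolerance lanes lay above both asthma lanes, and the control lanes overlapped with the tolerance lanes. Alveolar macrophages held between 8.76 and 25.6 CPM, the second level in order, and the 8 remaining classes had means of at most 8.68 CPM. Of C1q macrophages 50.2% had an Ms4a7 UMI (95% interval 46.8 to 53.6%, Clopper-Pearson), against 7.97% of alveolar macrophages and 0 of 160 T cells, which at 3 counts allows a share of cells with a UMI of up to 1.88%.

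**Figure D2:**
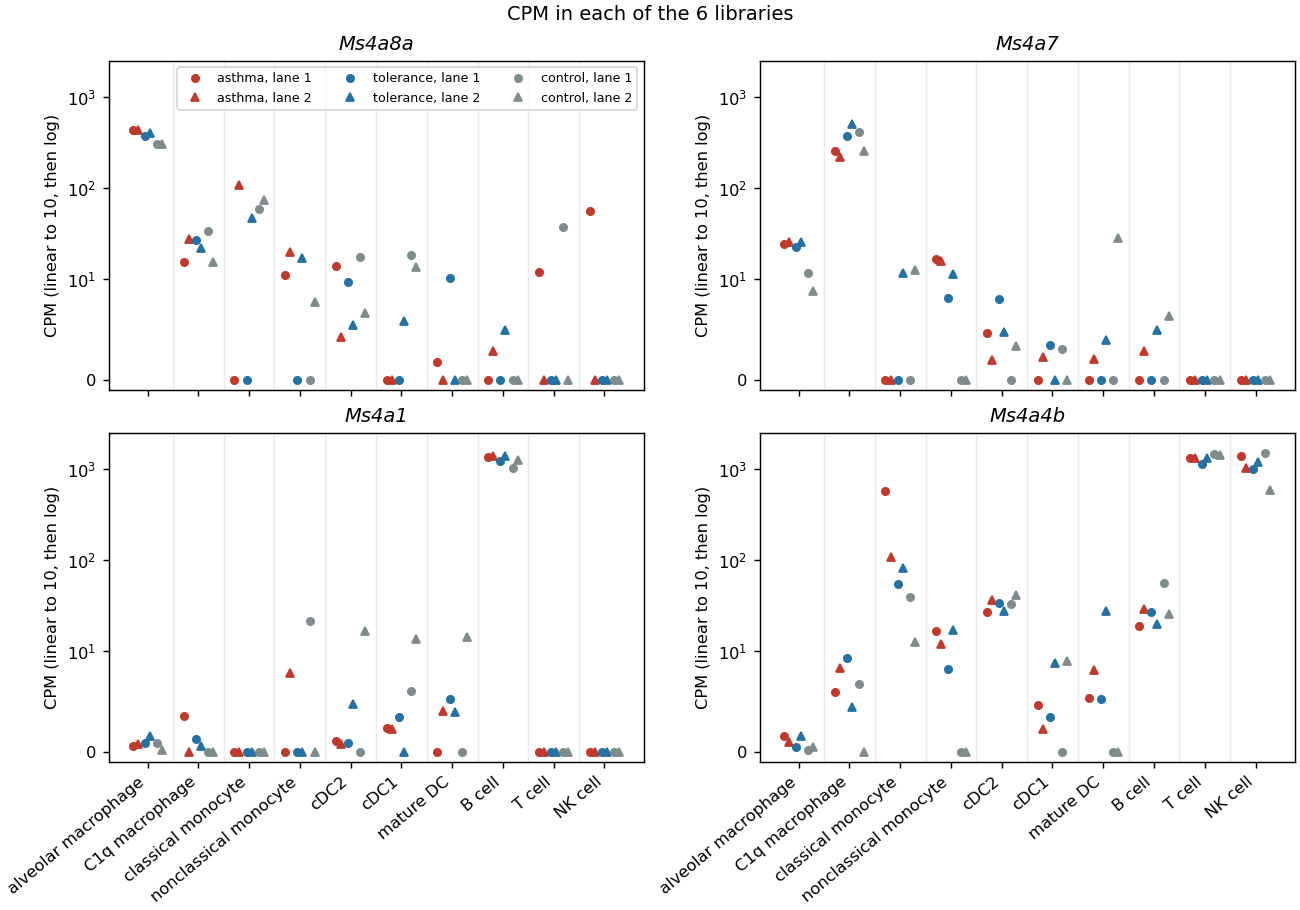
CPM of Ms4a8a, Ms4a7, Ms4a1 and Ms4a4b (vertical axis, linear to 10 and logarithmic above) in 10 classes, with 1 point for each of the 6 libraries (colour, pool; circle, lane 1; triangle, lane 2). Each gene has 1 class, or for Ms4a4b the T and NK cells, whose points lie above those of the other classes. The NK cell and classical monocyte points rest on few cells.

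Ms4a6c and Ms4a6d were spread over the myeloid cells. Nonclassical monocytes held Ms4a6c at 1088 and 825 CPM in the asthma lanes, 928 and 762 CPM in the tolerance lanes and 815 and 769 CPM in the control lanes, with a mean of 851 ± 75.1 CPM (SD, n = 3 pools). Classical monocytes averaged 1128 ± 326 CPM of Ms4a6c and overlapped them. Ms4a6d was lower in nonclassical monocytes, at 126 ± 53.9 CPM, and averaged 353 ± 71.1 CPM in C1q macrophages and 575 ± 288 CPM in cDC2 (SD, n = 3 pools each). In Ms4a6d, the pools of cDC2, C1q macrophages and classical monocytes overlapped. B cells held little of either gene, with 18.6 CPM of Ms4a6c and 8.54 CPM of Ms4a6d over all pools.

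Ms4a4c was at 1068 ± 625 CPM in classical monocytes, 583 ± 346 CPM in cDC2 and 256 ± 37.2 CPM in B cells (SD, n = 3 pools each). Lymphocytes, DCs and monocytes all held it. In B cells, the asthma lanes held 201 and 258 CPM, the tolerance lanes 275 and 322 CPM and the control lanes 220.02 and 251 CPM. Both tolerance lanes lay above the asthma and control lanes, which overlapped with each other. An Ms4a4c UMI was found in 9.38% of T cells, against 36.6% of B cells, and in 2.86% of alveolar macrophages.

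Ms4a4a was near the limit of detection, with 81 UMIs in 79 cells. Nonclassical monocytes had 17.97 ± 4.48 CPM (SD, n = 3 pools) over 17 UMIs, and alveolar macrophages had 0 UMIs in 4796 cells, which at 3 counts allows a share of cells with a UMI of up to 0.0626%.

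To set the classes against each other in the same mice, UMIs were summed per pool and class and fitted over all genes with edgeR's quasi-likelihood test, with the pool as a block and Benjamini-Hochberg adjustment, and a gene was called at an adjusted p under 0.05. Because the members were chosen with their class levels known, the fold changes are descriptions, and nothing is read from the counts of calls beside the share of all genes called. A member can also pass the filter on low counts through the class where it is high alone, and its direction is then no support. The calls rest on a spread between 3 pools that differ in treatment, and on 2 residual degrees of freedom.

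For C1q macrophages over alveolar macrophages, 7 members could be tested, of which 6 were higher and Ms4a8a was lower, where 37.9% of all 10312 genes were called. The log2 fold change was 5.82 ± 0.28 (SE) for Ms4a6b, 4.17 ± 0.27 for Ms4a7, 3.80 ± 0.14 for Ms4a4c, 2.70 ± 0.47 for Ms4a4b and -4.02 ± 0.16 for Ms4a8a. It was smaller for Ms4a6c, at 1.81 ± 0.26, and for Ms4a6d, at 0.99 ± 0.16, and the Ms4a6d call was lost without the block (adjusted p = 0.065, edgeR). In the alveolar macrophage pools Ms4a4b was at 0.311 to 1.24 CPM and Ms4a6b at 0.934 to 4.15 CPM. Ms4a4b and Ms4a6b thus entered the fit through C1q macrophages, and their direction is no support.

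For C1q macrophages over cDC2, 5 of 7 members were called, where 32.1% of 9372 genes were. Ms4a7 was higher in C1q macrophages, with a log2 fold change of 6.33 ± 0.19 (SE), and so was Ms4a8a, with 1.47 ± 0.24. Ms4a4b (-2.22 ± 0.24), Ms4a4c (-1.97 ± 0.17) and Ms4a6d (-0.67 ± 0.19) were lower in C1q macrophages. Ms4a7, at 1.88 to 6.26 CPM in the cDC2 pools, entered the fit through C1q macrophages. Ms4a4b, at 3.60 to 7.10 CPM in the C1q macrophage pools, entered it through cDC2. The direction of Ms4a7 and Ms4a4b is thus no support. The log2 fold changes of Ms4a6b (0.37 ± 0.15, adjusted p = 0.073) and Ms4a6c (-0.29 ± 0.14, adjusted p = 0.121) did not pass. Without the asthma pool, Ms4a6d no longer passed (adjusted p = 0.364) and Ms4a6b did (adjusted p = 0.0237), without the control pool Ms4a6c passed (adjusted p = 0.00372), and without lane 2 Ms4a8a did not (adjusted p = 0.075). Ms4a6d did not pass with DESeq2 (adjusted p = 0.0776), and without the block neither Ms4a4c (adjusted p = 0.0601) nor Ms4a6d (adjusted p = 0.223) did. Without the 183 cDC2-gated cells of the C1q macrophage cluster and the other cells on which gate and cluster differ, Ms4a6c passed (log2 fold change -0.44, adjusted p = 0.0373).

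For nonclassical monocytes over C1q macrophages, 4 of 5 members were called, where 44.8% of 5054 genes were. Ms4a6c (0.95 ± 0.16) and Ms4a6b (0.70 ± 0.19) were higher in nonclassical monocytes on the log2 scale, and Ms4a7 (-5.02 ± 0.36) and Ms4a6d (-1.65 ± 0.25) were lower. The paralogs Ms4a6c and Ms4a6d thus differed in direction. Ms4a7, at 0 to 16.0 CPM in the nonclassical monocyte pools, entered the fit through C1q macrophages, and its direction is no support. Ms4a4c had a log2 fold change of 0.58 ± 0.28 (adjusted p = 0.106) and passed without the tolerance pool (1.08, adjusted p = 0.000534), with no filter on low counts (adjusted p = 0.0126) and with a floor of 1200 genes per cell (adjusted p = 0.0444). Ms4a6b did not pass without the asthma pool (adjusted p = 0.221) or with DESeq2 (adjusted p = 0.061).

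For cDC2 over cDC1, all 5 members tested were higher in cDC2, where 19.4% of 7539 genes were called in either direction, and this held under every alternative tried. The log2 fold change was 3.60 ± 0.18 for Ms4a4c, 2.83 ± 0.35 for Ms4a4b, 2.01 ± 0.18 for Ms4a6b, 1.96 ± 0.12 for Ms4a6d and 1.77 ± 0.13 for Ms4a6c (SE). Their median was 2.01, against 0.01 over all genes, a description since the members were chosen with their class levels known. Ms4a4b had 9 UMIs in all cDC1, against 268 in all cDC2, and thus entered the fit through cDC2. In the control pool Ms4a4c likewise rested on cDC2, with 3 UMIs in cDC1 against 202 in cDC2. The direction of Ms4a4b and Ms4a4c, and its hold under the alternatives, is thus no support.

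Mature DCs, which have left the immature state and carry the chemokine receptor Ccr7, held less of the 5 members tested than cDC2. All 5 members tested were lower in mature DCs than in cDC2, where 46.5% of 7649 genes were called, with log2 fold changes of -3.26 ± 0.26 for Ms4a6d, -2.95 ± 0.33 for Ms4a6c, -1.58 ± 0.26 for Ms4a4c, -1.54 ± 0.26 for Ms4a6b and -1.51 ± 0.42 for Ms4a4b (SE). In mature DCs the lowest pool held 0 CPM of Ms4a4b, Ms4a6b, Ms4a6c and Ms4a6d and 7.63 CPM of Ms4a4c. These members thus entered the fit through cDC2, and their shared direction is no support. Ms4a4b did not pass without the asthma pool (adjusted p = 0.188) or without lane 1 (adjusted p = 0.0765), and Ms4a4c did not pass without the block (adjusted p = 0.133). With clusters in place of gates, Ms4a6c and Ms4a6d were called and the other 3 members were not (adjusted p between 0.471 and 0.907). Over cDC1, 3 of 4 members were called in mature DCs, where 45.1% of 5908 genes were. Ms4a4c was higher in mature DCs, with a log2 fold change of 1.99 ± 0.24 (SE), while Ms4a6d (-1.35 ± 0.26) and Ms4a6c (-1.23 ± 0.42) were lower. Ms4a6c and Ms4a6d, at 0 CPM in the lowest mature DC pool, entered this fit through cDC1, and their direction is no support. Ms4a6c did not pass without the asthma pool (adjusted p = 0.353), without lane 1 (adjusted p = 0.164) or with DESeq2 (adjusted p = 0.214), and without the block neither Ms4a6c (adjusted p = 0.174) nor Ms4a6d (adjusted p = 0.105) did. With clusters, Ms4a6c (0.16, adjusted p = 0.867) and Ms4a6d (-0.12, adjusted p = 0.82) did not pass, and Ms4a6b, whose log2 fold change was 0.42 ± 0.39 with gates (adjusted p = 0.405), did (2.42, adjusted p = 0.0136).

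For T cells over B cells, the 4 members tested were all called, where 26.7% of 3425 genes were. Ms4a4b (log2 fold change 5.55 ± 0.23, SE) and Ms4a6b (5.19 ± 0.25) were higher in T cells, and Ms4a4c (-2.32 ± 0.30) and Ms4a1, with 0 UMIs in T cells, were lower. In the B cell pools Ms4a4b was at 23.2 to 38.4 CPM and Ms4a6b at 17.9 to 27.9 CPM. Ms4a1, Ms4a4b and Ms4a6b thus entered the fit through the class where they are high. The 4 calls held under every alternative tried, which for these members is no support.

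The treatments were compared within a class as ratios of CPM with intervals for counting error, with no test, since each treatment is 1 pool of mice. A ratio over 2 was the rule of size. All ratios over control share the control pool.

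In cDC2, Ms4a4c was at 796 and 873 CPM in the asthma lanes and 738 and 702 CPM in the tolerance lanes, against 166 and 208 CPM in the control lanes. Every asthma and tolerance library lay above both control libraries, and the ratio over control was 4.42 in asthma (95% interval 3.84 to 5.12) and 3.78 in tolerance (3.27 to 4.40). Ms4a6d was at 811 and 813 CPM in the asthma lanes and 644 and 671 CPM in the tolerance lanes, against 216 and 284 CPM in the control lanes, with ratios of 3.19 (2.82 to 3.62) in asthma and 2.58 (2.27 to 2.95) in tolerance. Ms4a6c was at 613 and 666 CPM in the asthma lanes and 537 and 602 CPM in the tolerance lanes, against 327 and 342 CPM in the control lanes, a ratio of 1.92 in asthma and 1.70 in tolerance. The ratios of Ms4a6b were 1.502 (1.202 to 1.89) in asthma and 1.57 (1.246 to 2.00) in tolerance. Ms4a4b, at 0.860 (0.602 to 1.253) and 0.803 (0.544 to 1.20), had intervals that include 1. Of 6 members with at least 20 UMIs, 2 were over 2-fold higher in asthma, where 6.94% of 9563 genes were, and 2 were in tolerance, where 5.59% of 8926 were. The summed interferon list, 10 genes induced by interferons such as Isg15 and Ifit1, was at 652 CPM in asthma and 640.3 CPM in tolerance, against 85.5 CPM in control cDC2, and the classical monocyte list at 52.04 and 65.2 CPM (4 of 4 genes detected in each), against 18.8 CPM (3 of 4). The C1q macrophage list (6 of 6 genes detected in each pool) was at 147 and 159 CPM, against 193 CPM in control cDC2. The part of these lists in the Ms4a ratios was not tested. Without cells on which gate and cluster differ, the Ms4a4c ratios were 4.80 in asthma and 4.22 in tolerance.

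In cDC1, the same genes were higher at lower levels. Ms4a4c was at 57.3 and 76.3 CPM in the asthma lanes and 61.9 and 72.8 CPM in the tolerance lanes, against 6.04 and 4.49 CPM in the control lanes, which held 3 UMIs in all. Its ratio over control was 12.3 (4.02 to 61.6) in asthma and 12.5 (4.01 to 63.1) in tolerance. Ms4a6d was at 217 CPM in asthma and 155 CPM in tolerance, against 56.0 CPM in control, and Ms4a6c at 215 and 132.5 CPM, against 88.5 CPM. Of 4 members with enough UMIs, 3 were over 2-fold higher in asthma, where 5.56% of 6385 genes were, and 2 in tolerance, where 6.33% of 5877 were. The interferon list was at 679 CPM in asthma and 920 CPM in tolerance, against 81.3 CPM in control cDC1, and its part was not tested.

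In alveolar macrophages, Ms4a6c was at 181 and 154 CPM in the asthma lanes and 235 and 200.4 CPM in the tolerance lanes, against 41.5 and 41.3 CPM in the control lanes. The ratio over control was 4.05 (3.66 to 4.48) in asthma and 5.23 (4.71 to 5.82) in tolerance. Ms4a6d was at 230 and 239 CPM in the asthma lanes and 235 and 233 CPM in the tolerance lanes, against 99.99 and 102 CPM in the control lanes, a ratio of 2.32 (2.16 to 2.49) in asthma and 2.31 (2.13 to 2.51) in tolerance. Ms4a4c was low in all pools, at 13.6 CPM in asthma and 17.2 CPM in tolerance, against 2.49 CPM in control. Ms4a7 was at 24.9 and 23.9 CPM, against 10.0 CPM, while the summed C1q macrophage list (6 of 6 genes detected) was at 69.2 and 78.9 CPM, against 31.6 CPM, and the cDC2 list (5 of 5 genes) at 139 and 146 CPM, against 58.4 CPM. Their part in the ratios was not tested. Ms4a8a, the member with its highest level in this class, was 1.41-fold (1.34 to 1.47) in asthma and 1.27-fold (1.20 to 1.34) in tolerance over control. Of 6 members with enough UMIs, 5 were over 2-fold higher in asthma, where 3.13% of 11022 genes were, and 5 in tolerance, where 3.71% of 10875 were.

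Alveolar macrophages of the pools lay in different clusters. One cluster, number 6, took 926 of them in asthma (56.5%) and 546 in tolerance (69.4%), against 7 in control (0.295%), and other clusters took the rest. Outside cluster 6, Ms4a6c was at 80.5 CPM (70.7 to 91.2) in asthma and 110.3 CPM (93.2 to 130) in tolerance, against 40.3 CPM (36.9 to 44.0) in control, and Ms4a6d at 133 and 124 CPM, against 100.3 CPM. Inside it, Ms4a6c was at 220.2 CPM in asthma and 257 CPM in tolerance cells, against 413.6 CPM (231.5 to 682) in the 7 control cells, and Ms4a6d at 296 and 276 CPM, against 386 CPM (211 to 648). Ms4a genes took no part in this clustering. The summed interferon list outside cluster 6 was at 191 CPM in asthma and 284 CPM in tolerance, against 19.4 CPM in control. Inside cluster 6 the list was at 918 CPM in asthma and 1131 CPM in tolerance, against 496 CPM (294 to 784) in control. Inside it, the list was thus lowest in control, where Ms4a6c was highest, and the part of the list was not tested.

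In C1q macrophages, only Ms4a4c passed the 2-fold rule over control among the members with enough UMIs, in both treated pools. It was at 153 and 187 CPM in the asthma lanes and 239.96 and 241 CPM in the tolerance lanes, against 26.9 and 46.5 CPM in the control lanes, which held 10 UMIs. The ratio was 4.72 (2.53 to 9.94) in asthma and 6.68 (3.61 to 14.0) in tolerance, where 10.4% of 7688 and 11.0% of 8927 genes were over 2-fold higher. Ms4a6c had ratios of 1.27 and 1.60 and Ms4a6d of 1.22 and 1.499 in asthma and tolerance. Ms4a7 was 1.88-fold (1.69 to 2.11) in tolerance over asthma.

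In nonclassical monocytes, the ratios of Ms4a4c, Ms4a6b and Ms4a6c over control lay between 0.842 and 1.18 in both treated pools, with intervals that include 1. Ms4a6d was lower in the treated pools, at 116 and 93.9 CPM in the asthma lanes and 89.6 and 84.7 CPM in the tolerance lanes, against 222 and 161 CPM in the control lanes. Its ratio was 0.551 (0.354 to 0.860) in asthma and 0.463 (0.273 to 0.774) in tolerance. Of 4 members with enough UMIs, 0 were over 2-fold higher in either treated pool, where 3.79% of 4457 genes were in asthma and 2.78% of 3807 in tolerance. The interferon list stood at 369 and 470.0 CPM in asthma and tolerance, against 165 CPM in control nonclassical monocytes.

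**Figure D3:**
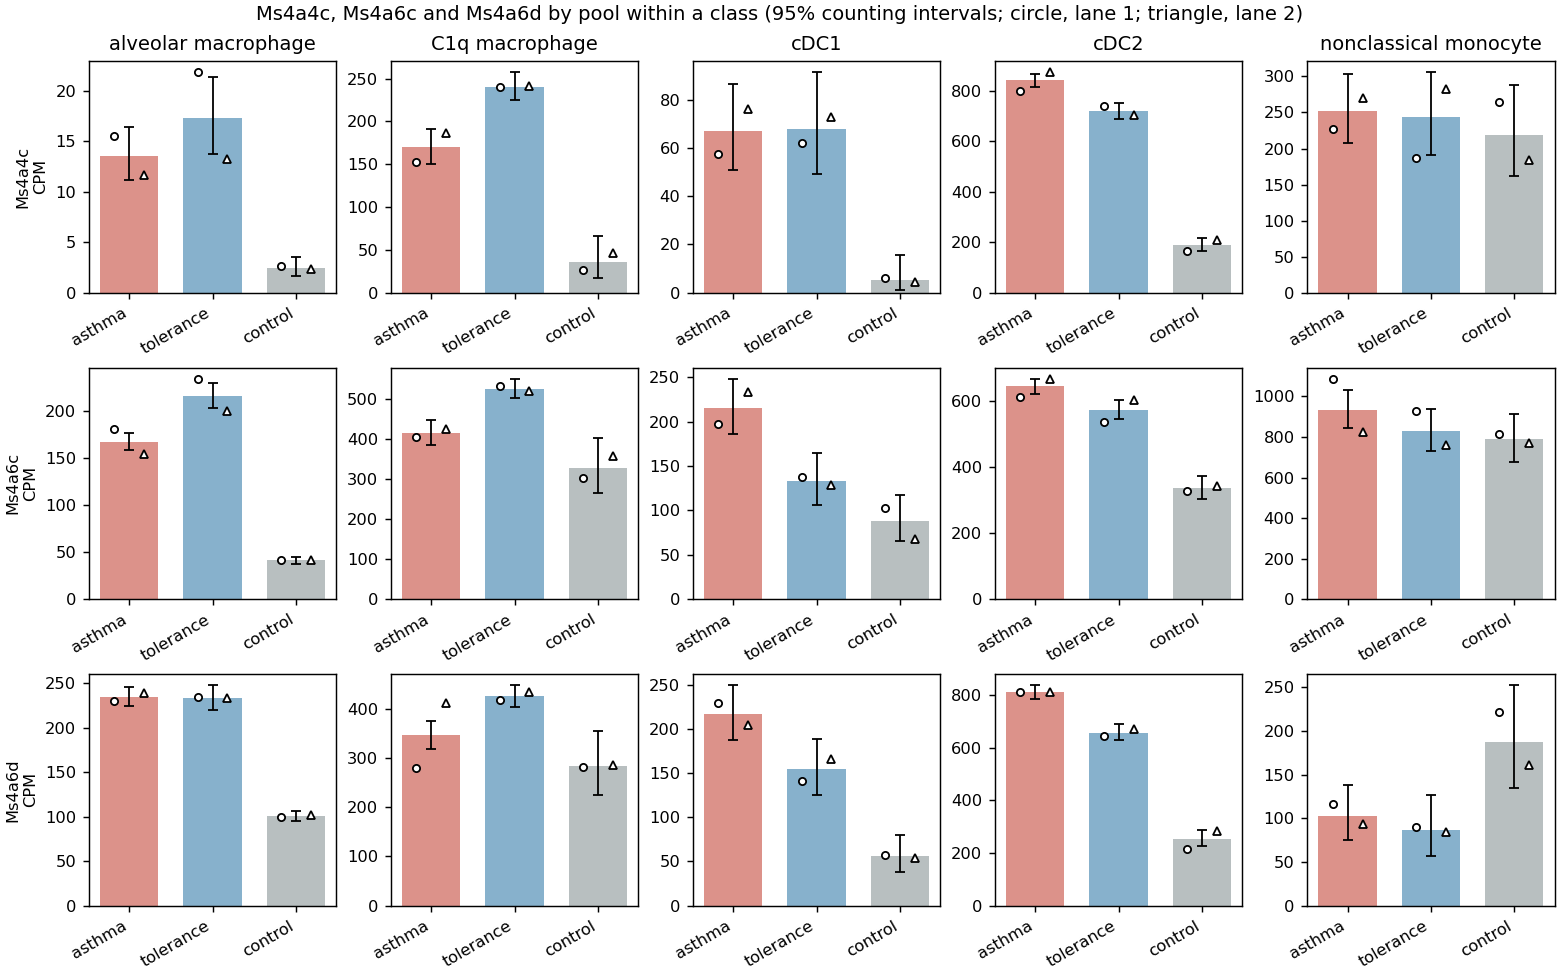
CPM (vertical axes, each from 0) of Ms4a4c, Ms4a6c and Ms4a6d (rows) in the asthma, tolerance and control pools within 5 classes (columns), with 95% counting intervals on the bars and the 2 lanes as points. In cDC2 and cDC1 the treated bars of Ms4a4c and Ms4a6d stand above the control bar, and in nonclassical monocytes the Ms4a6d bars stand below it. Each bar is 1 pool of mice.

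In mature DCs, the control pool held 31 cells with 1 UMI of Ms4a4c and 0 of Ms4a6b, Ms4a6c and Ms4a6d. Ms4a4c was at 162 and 208 CPM in the asthma lanes and 109 and 474 CPM in the tolerance lanes, against 0 and 14.1 CPM in the control lanes. With a floor of 3 UMIs for the control pool, or 22.9 CPM, Ms4a6d was at least 3.66-fold higher in asthma and Ms4a6c at least 5.84-fold higher in tolerance. These are the highest pools of the 2 genes, and the bound for the other treated pool of each is lower. All 4 members with enough UMIs passed the 2-fold rule in both treated pools, 3 of them against a control of 0 UMIs. Of all genes, 17.9% of 5391 did in asthma and 12.6% of 3570 in tolerance. The tolerance value of Ms4a6c rests on lane 2, with 219 CPM there and 20.7 CPM in lane 1. In B cells, Ms4a1 was 1.19-fold (1.05 to 1.35) in asthma and 1.13-fold (0.983 to 1.30) in tolerance over control, and in T cells Ms4a4b was 0.907-fold (0.709 to 1.17) and 0.854-fold (0.668 to 1.10).

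Alveolar macrophages were further split by the interferon list within each pool, at 10 UMIs of the list per 10000, a list that holds no Ms4a gene. The split gave 267 interferon-high cells in the asthma pool, 153 in the tolerance pool and 5 in the control pool, which was left out of the fit. Ms4a6c was at 417 CPM in interferon-high cells of the asthma pool, against 114 CPM in its other cells, and at 534 CPM in those of the tolerance pool, against 132 CPM. Ms4a4c was at 58.7 CPM in interferon-high cells of the asthma pool, against 3.92 CPM in its other cells, and at 63.3 CPM in those of the tolerance pool, against 4.995 CPM. Both pools showed the higher level in interferon-high cells for each of the 6 members tested, and the ordering of the members by size was Ms4a4c first and Ms4a8a last. The log2 fold changes were 3.86 ± 0.23 for Ms4a4c, 3.15 ± 0.45 for Ms4a6b, 2.01 ± 0.08 for Ms4a6c, 1.14 ± 0.08 for Ms4a6d, 0.70 ± 0.20 for Ms4a7 and 0.37 ± 0.07 for Ms4a8a (SE, 2 pools). All 6 were called by edgeR's quasi-likelihood test, where 9.29% of 9410 genes were. Ms4a6b, at 1.81 and 1.31 CPM in the other cells of the asthma and tolerance pools, entered the fit through interferon-high cells. The fit had 1 residual degree of freedom, and most of its spread was borrowed from other genes. Ms4a7 and Ms4a8a did not pass with DESeq2 (adjusted p = 1.00 and 0.107), without the block (0.0679 and 0.0705) or without lane 2 (0.0602 and 0.0843), and Ms4a7 did not pass without lane 1 (adjusted p = 0.299) or with a stricter gate (adjusted p = 0.172). Median depth was higher in interferon-high cells, at 4977 UMIs in the asthma pool and 6469 in the tolerance pool, against 4486 and 5617 in the other cells. With cells thinned to 1000 UMIs, 28.2% of interferon-high cells of the asthma pool had an Ms4a6c UMI, against 10.3% of its other cells, and 38.6% of those of the tolerance pool, against 10.9%. Among the other cells, Ms4a6c was at 114 CPM in asthma and 132 CPM in tolerance, against 40.9 CPM in control.

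**Figure D4:**
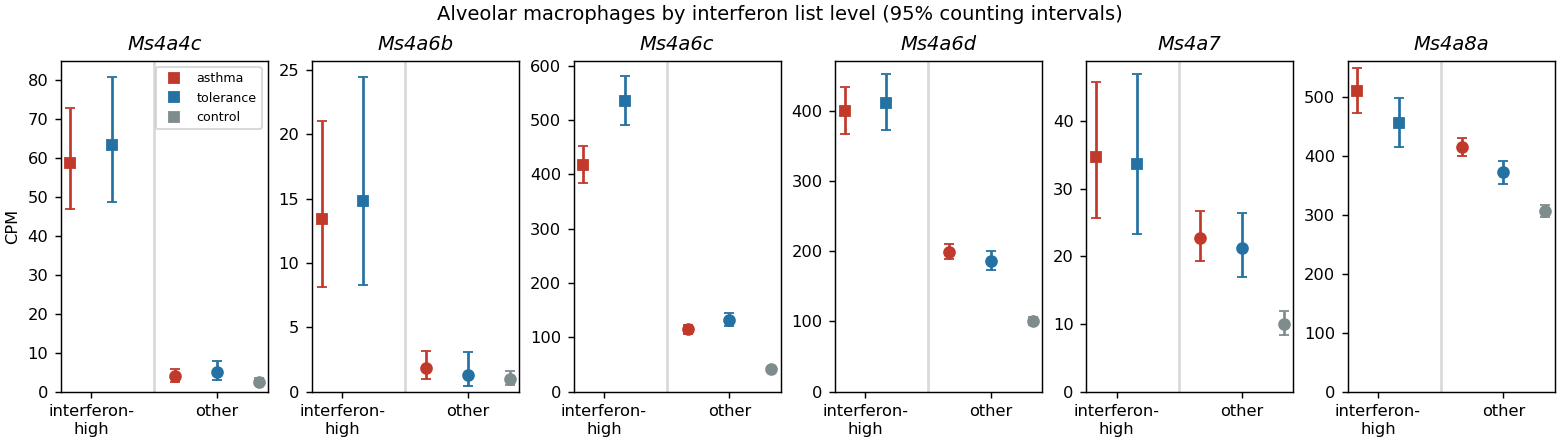
CPM (vertical axes, each from 0) of 6 members in interferon-high (squares, left) and other alveolar macrophages (circles, right), with 95% counting intervals, coloured by pool. Ms4a4c, Ms4a6b and Ms4a6c lie several times higher in interferon-high cells of both pools, and Ms4a8a differs little. The control pool has too few interferon-high cells (5) to be drawn on the left.

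The genes with the pattern most like each member were sought over 27 combinations of class and pool with at least 10 cells, among 9646 genes, as Pearson's r of log2(CPM + 10). Combinations share pools and differ in depth, so r is a description. Ms4a1 was closest to Fcmr (r = 0.995), Fcer2a, the low-affinity IgE receptor (0.994), and Pax5, a B cell transcription factor (0.994). Of these, Fcmr and Pax5 were B cell gate markers. Ms4a4b was closest to Lck (0.95), the T cell kinase, and to the T cell receptor genes Trbc1 and Trac (0.944 each), both gate markers. Ms4a8a was closest to Chil3 (0.943), a chitinase-like protein of alveolar macrophages, and then to Spef1 (0.915) and Pdgfc (0.911). Ms4a7 was closest to Col14a1 (0.944), Pf4 (0.943, a gate marker) and Ccl7 (0.943). Ms4a6c was closest to Myd88 (0.911), an adaptor of Toll-like receptors, Cd300a (0.9) and Tkt (0.884), and Ms4a6d to Ssr1 (0.926), Pnp (0.916) and Ier3 (0.913). Ms4a6b was closest to Hopx (0.84), Fyb (0.839) and Arl6ip5 (0.803). The likeness was least for Ms4a4c, with Plac8 (0.798), Hpse (0.775) and Ckap4 (0.732). Among the members themselves, r was highest between Ms4a6c and Ms4a6d (0.834) and between Ms4a4b and Ms4a6b (0.699). The neighbours with similar promoter stretches had r of 0.0367 between Ms4a4c and Ms4a4b and 0.388 between Ms4a6c and Ms4a6b. Over all pairs of members r went down to -0.49, and most other pairs lay below 0.388. Ms4a6d had no promoter entry, so likeness of promoter and of pattern cannot be compared for its pairs.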

How the data were processed

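Sorted lung cells of 3 pools of mice were profiled by droplet 3' RNA sequencing on 2 lanes. Per the submitters' processing notes, the authors used Cell Ranger 3.1.0, STAR, Seurat 3.1.5 and the mm10 build. The deposited values are whole-number UMI counts per gene and barcode, not normalized, and pools were assigned from the labels. Each table holds 31053 gene rows and 4 antibody rows.

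Filters at 500 genes (619 barcodes below), 20000 UMIs (22 above) and 20% mitochondrial UMIs (661 above) left 10088 barcodes. Scrublet's automatic threshold marked 0.059% and 0.121% of cells, below 0.5%, so the highest 2% of scores per lane (122 and 110 cells) were removed. A cell was gated if a marker list held at least 3 UMIs, passed the cut of its class and led the next class at least 2-fold. The cuts were set from the markers after the files were seen, and Fn1 was dropped from the classical monocyte list. Leiden clustering (2000 genes, 30 components, 15 neighbours, resolution 1) left out Ms4a genes and gave 16 clusters.

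UMIs summed per pool and class (at least 10 cells) were tested with edgeR 4.0.16 in R 4.3.3 (quasi-likelihood, TMM, filterByExpr, pool as block). The block is justified because both classes of a contrast come from the same mice. Mice within a pool were not separated, so the spread is between 3 pools that differ in treatment. Tests were tried on simulated counts with the same dispersion for every gene and no difference between pools. That setting is simpler than these data, so it does not show how the calls hold in pools that differ in treatment. DESeq2 1.42.0, other size factors, no filter, no block, single lanes, left-out pools, a stricter gate, clusters in place of gates, a floor of 1200 genes, no doublet removal, thinning to 1000 UMIs, and, chosen after seeing the data, a lower interferon cut and cells on which gate and cluster agree, were the alternatives. Shares have Clopper-Pearson and levels exact Poisson intervals at 95%, for counting error only, and a count of 0 allows 3 counts. Python 3.11.15, scanpy 1.11.5, scipy 1.17.1, Biopython 1.88 and matplotlib 3.10.9 were used. Sequences are from RefSeq and gene positions from the GRCm38 annotation.

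The members, lists and comparisons were chosen with earlier results of these data known. All 9 members are named, with other Ms4a genes of more than 3 UMIs and the 3 genes most like each member with at least 100 UMIs in gated cells.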

Additional observations from a re-analysis of the deposited data

Results flagged for a closer look

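Treatment ratios of some members went in opposite directions in different classes, in both lanes and with counting intervals clear of 1. None of these differences was tested, since each treatment is 1 pool. In asthma over control, Ms4a6d was 2.32 in alveolar macrophages, 3.87 in cDC1 and 3.19 in cDC2, against 0.551 in nonclassical monocytes, and Ms4a7 was 2.48 in alveolar macrophages, against 0.699 in C1q macrophages. In tolerance over control, Ms4a6d was 2.31 in alveolar macrophages, 1.499 in C1q macrophages, 2.09 in classical monocytes, 2.76 in cDC1 and 2.58 in cDC2, against 0.463 in nonclassical monocytes. Ms4a6c was 5.23 in alveolar macrophages, 1.60 in C1q macrophages, 1.497 in cDC1 and 1.70 in cDC2, against 0.750 in classical monocytes. That gate took 20 cells in each of these pools, of which 7 in tolerance, against 19 in control, lay in the classical monocyte cluster, and with clusters in place of gates the Ms4a6d ratio there was 0.564.

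In tolerance over asthma, Ms4a4c was 1.42 in C1q macrophages, against 0.855 in cDC2, and Ms4a6b was 1.49 in C1q macrophages, against 0.701 in T cells. Ms4a6c was 1.29 in alveolar and 1.27 in C1q macrophages, against 0.615 in cDC1, 0.889 in cDC2 and 0.159 in B cells, where it had few UMIs. Ms4a6d was 1.23 in C1q macrophages, against 0.714 in cDC1 and 0.810 in cDC2.

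Of the 10 other Ms4a genes of the tables, 4 exceeded the 3 UMIs that a count of 0 allows. Ms4a14, the gene next to Ms4a7, had 57 UMIs in 50 cells, 46 of them in C1q macrophages. Ms4a2, the beta chain of the high-affinity IgE receptor of mast cells and basophils, had 13 UMIs in 8 cells, 4 of them in the 6 cells of the mast cell or basophil gate. Ms4a3 had 9 UMIs in 9 cells and Ms4a4d had 8 UMIs in 6 cells.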

How the results depend on the processing

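Of 592 log2 fold changes of members recomputed under alternatives, 552 kept direction and side of the threshold, 27 lost the call, 8 gained one and 5 changed sign. The 5 were Ms4a6b in C1q macrophage minus cDC2 with clusters in place of gates (-0.19), Ms4a6b in mature DC minus cDC1 with a stricter gate (-0.51) and in the range over left-out pools (-0.21 without the tolerance pool to 0.61 without the control pool), Ms4a6c in mature DC minus cDC1 with clusters (0.16), and Ms4a6b in mature DC minus cDC2 with clusters (0.084). Without the replicate block, the members called fell to 3 in C1q macrophage minus cDC2 (5 with it) and to 1 in mature DC minus cDC1 (3 with it), and with clusters in mature DC minus cDC2 they numbered 2 (5 with gates). The other alternatives kept the number of members called within 1.5 times. Over all genes, the number called ranged over alternatives between 2277 and 4735 for C1q macrophage minus alveolar macrophage (3904 as reported), 1507 and 3978 for C1q macrophage minus cDC2 (3004), 1279 and 3209 for nonclassical monocyte minus C1q macrophage (2262), 679 and 1985 for cDC2 minus cDC1 (1463), 1567 and 3332 for mature DC minus cDC1 (2667), 2072 and 4141 for mature DC minus cDC2 (3560), 375 and 1125 for T cell minus B cell (913), and 262 and 957 for interferon-high minus other alveolar macrophage (874, 262 with DESeq2). The causes were not tested. The tolerance over asthma ratio of Ms4a6c in mature DC was 3.47, and 0.405 without replicate 2, which is lane 2, and 9.06 without replicate 1. The tolerance over control ratio of Ms4a6d in classical monocyte was 2.09, and 0.564 with clusters. NK cell minus T cell could not be fitted, and interferon-high minus other could not be fitted without the asthma or the tolerance pool.

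Treatments rest on 1 pool each, so mice, cage and sort cannot be told apart from treatment. Classical monocytes, NK cells and control mature DCs are too few to give their members a firm place in the order of levels. Fewer cells of a kind within a gate and less RNA per cell cannot be told apart in a summed level.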
